A study of Mus musculus with 5 samples.

Results

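Cassette exons of the Mef2 genes, exons spliced into some transcripts of a gene and left out of others, were followed in RNA sequencing libraries of mouse left ventricle. The Mef2 exons were taken as every event of the 6 deposited cassette-exon tables whose gene symbol was Mef2a, Mef2b, Mef2c or Mef2d, with a match on exon and intron lengths where the file gave no symbol. This gave 3 of 6616 events: 1 of Mef2a, 1 of Mef2d, 1 labelled Mef2b and 0 of Mef2c. All 3 had the reads to be tested, among 4769 tested events.

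The diabetic mice (STZ, 3 samples) were C57BL/6 animals given streptozotocin at 70 mg/kg in citrate buffer by intraperitoneal injection on 5 days in a row from 8 weeks of age. The Control mice (2 samples) were C57BL/6 animals of the same age given citrate buffer alone. Both groups were 12 weeks old at sampling. Streptozotocin kills the beta cells that make insulin, so the mice model diabetes by insulin loss. The labels give no blood glucose for any animal. The deposited tables give libraries coded names that fit none of the sample titles, and 3 of the libraries were taken as STZ and 2 as Control from the group sizes alone. They are called STZ A, STZ B, STZ C, Control A and Control B. The coded names fall into a pair of series along the same line as the groups, so the treatment and any difference in handling cannot be told apart.

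The libraries held 12692236 to 14913419 reads on these events in STZ and 17154734 to 20963751 in Control. Control A and Control B were distinct libraries, with a median chi-square of 2.72 per event for their event reads, where sampling noise alone gives a median of 0.455. Events of 3 of 11 cardiomyocyte marker genes summed to 37363 to 47569 RPM (reads per 1000000 reads on all events) in STZ and 41554 to 42820 in Control. No atrial or neuronal marker gene had an event in all tables, and a gene without one has no value here. Other cell markers moved with the groups. The 1 of 5 endothelial genes with events, Pecam1, had 3107 to 5332 RPM in STZ and 1396 to 1548 in Control, and events of 3 of 4 smooth muscle genes summed to 824 to 1036 in STZ and 2683 to 2802 in Control. Events of 2 of 5 fibroblast genes summed to 68.7 to 126 RPM in STZ and 160.2 to 187 in Control, 1 of 2 leukocyte genes had 6.81 to 19.4 in STZ and 23.2 to 34.7 in Control, and 1 of 5 skeletal muscle genes had 11.0 to 18.0 in STZ and 4.48 to 5.13 in Control. The part of these shifts in the Mef2 values was not tested. In bulk tissue, fewer cells of a type and less RNA per cell cannot be told apart.

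MEF2 proteins are transcription factors of the MADS-box family that bind A/T-rich elements in front of muscle genes and, with cofactors, switch on contractile and metabolic genes in heart and skeletal muscle. Class IIa histone deacetylases hold MEF2 silent, and kinases that respond to calcium or stress release or activate it. The transcripts of Mef2a, Mef2c and Mef2d share an organisation with alternative exons, among them a short exon called beta. This exon adds a few residues, acidic ones among them, to the activation region. It is known to be included mainly in striated muscle and brain.

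The Mef2a event is this short exon. In the authors' mm9 coordinates it lies at chr7:74389407-74389430 on the minus strand, between introns of 7112 nt upstream and 4080 nt downstream, with flanking exons of 188 and 127 nt. The file gives it no gene symbol, and the name comes from its lengths in the GENCODE vM21 annotation (GRCm38), where the exon lies at chr7:67244521-67244544. All 24 of its bases are coding, which makes 8 codons, so that its inclusion keeps the reading frame. It is present in 3 of 12 annotated Mef2a transcripts, and 5 transcripts join its neighbours directly. The exon is shown first within its spliced transcript, since this is the stretch that differs between the isoforms counted below, with the exon in capitals and 30 bases of either neighbour in lower case. It is then set beside the matching short exons of Mef2c (GRCm38 chr13:83654598-83654621, plus strand) and Mef2d (GRCm38 chr3:88161781-88161801, plus strand), each in capitals over its whole length. All are read 5′ to 3′ on the coding strand from GENCODE transcripts.
Mef2a exon in its transcript: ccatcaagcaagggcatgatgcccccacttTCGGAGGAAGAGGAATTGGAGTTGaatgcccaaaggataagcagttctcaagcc
Mef2a short exon: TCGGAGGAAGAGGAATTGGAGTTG
Mef2c short exon: TCTGAGGATGTGGATCTGCTGTTG
Mef2d short exon: ACTGAGGACCATTTAGATCTG
The Mef2a and Mef2c exons have the same length and 17 of 24 bases in common. Counted from 1 at the 5′ end of the exon, with the Mef2a base first, they differ at G3T, A9T, A11T, A15T, T16C, G19C and A20T. The Mef2d exon has 21 bases and shares a longest run of 5 bases with that of Mef2a. Purines make up 18 of 24 bases in the Mef2a exon, 12 of 24 in the Mef2c exon and 11 of 21 in the Mef2d exon. The short exons of Mef2c and Mef2d matched 0 events by length, so only that of Mef2a has values here.

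Inclusion of the Mef2a exon was lower in every STZ library than in either Control library, but the difference did not pass the test. Its Psi, the fraction of transcripts estimated by the authors to hold the exon, was 0.70 in STZ A, 0.50 in STZ B and 0.47 in STZ C, against 0.74 in Control A and 0.83 in Control B. The groups did not overlap, and STZ A lay much closer to Control A than to the other STZ libraries. Of all tested events, 42.9% had groups that did not overlap, and 28.8% had every STZ library lower. The mean was 0.557 ± 0.125 in STZ (SD, n = 3) and 0.785 ± 0.0636 in Control (SD, n = 2), a difference of -0.228. In limma, with Psi on the logit scale and Benjamini-Hochberg adjustment across the 4769 tested events, the difference was -1.07 logit units with a 95% confidence interval of -2.22 to 0.0782 (adjusted p = 0.179). The threshold was an adjusted p of 0.05, which 15.0% of the tested events passed, 4.84% higher and 10.1% lower in STZ. None of the 3 Mef2 events passed it. An unadjusted limma p below 0.05 was found for 0 of 3, beside 1527 of the 4769 tested events. A quasi-binomial model of the reads called 0 of 3, but it called only 0.503% of all tested events.

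**Figure D1:**
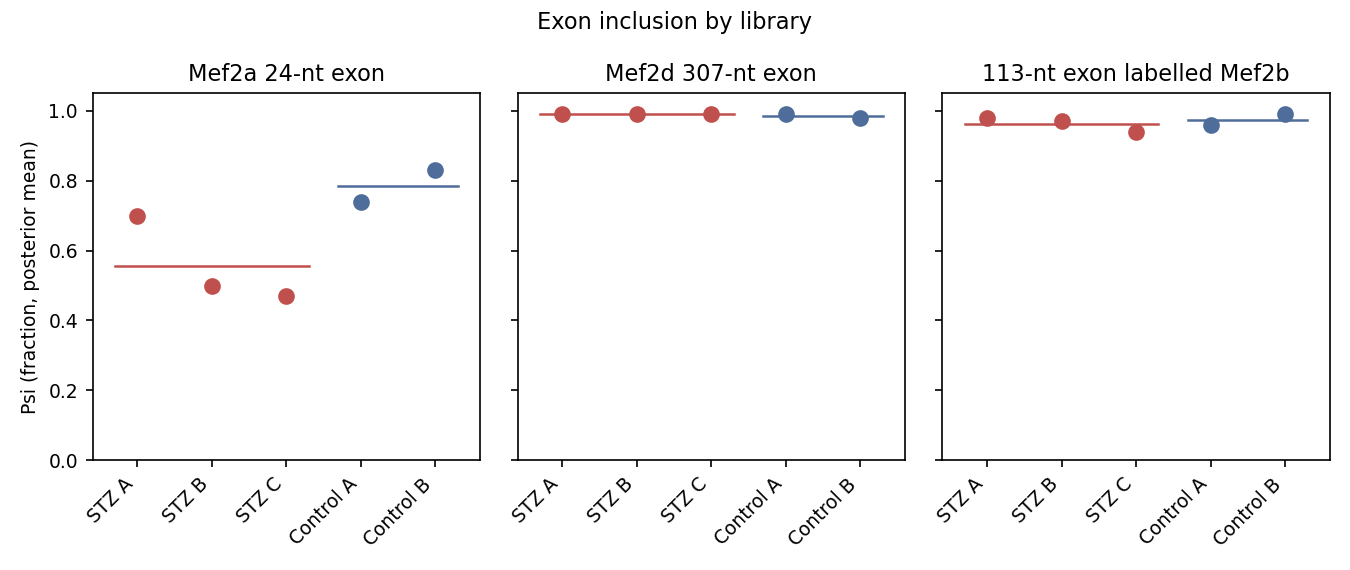
Psi of the 3 exons (vertical axis, a fraction from 0 to 1) in each STZ library and each Control library (horizontal axis); points are libraries and lines are group means. The Mef2a exon ranged from 0.47 to 0.70 in STZ and from 0.74 to 0.83 in Control, while the other exons stayed at 0.94 or above in all libraries.

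The Mef2a exon varied more among the STZ libraries than most events did. Its absolute difference in Psi was larger than that of 91.3% of tested events, whose median absolute difference was 0.035. Its SD among the STZ libraries, 0.125, was larger than that of 94.7% of events, whose median SD was 0.0231. Events with Psi near the ends of the scale have little room for a large difference or SD. These ranks were not matched on the level of Psi. Psi in STZ A exceeded that in STZ B by 0.20 and that in STZ C by 0.23. Over all tested events, STZ A had a mean absolute Psi difference of 0.0483 to STZ B and 0.0501 to STZ C, against 0.0468 between STZ B and STZ C. The mean absolute difference was 0.0363 between the Control libraries and 0.0786 to 0.0884 between libraries of different groups. By event reads, STZ A stood further from the other STZ libraries than they stood from each other. The median chi-square per event was 9.57 to STZ B and 10.6 to STZ C, against 3.45 between STZ B and STZ C. Between libraries of different groups it was 50.4 or more.

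The share of inclusion-only reads put the libraries in the same order as Psi. Reads that fitted only the including isoform numbered 421 in STZ A, 136 in STZ B and 133 in STZ C, against 311 in Control A and 622 in Control B. Reads that fitted only the skipping isoform numbered 117, 86 and 90 in the same STZ libraries, against 60 in Control A and 82 in Control B. Among reads that tell the isoforms apart, inclusion took 78.3% in STZ A (95% Wilson interval 74.6 to 81.5), 61.3% in STZ B (54.7 to 67.4) and 59.6% in STZ C (53.1 to 65.9). It took 83.8% in Control A (79.7 to 87.2) and 88.4% in Control B (85.8 to 90.5). The intervals cover counting error only. Those of STZ B and STZ C overlapped each other and none of the rest, while that of STZ A overlapped the interval of Control A. These shares were above Psi in every library. Psi also takes in the reads that fit both isoforms and the length of each isoform.

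Scaled to library size, the isoform that skips the Mef2a exon gained reads in STZ while the including isoform showed no passing change. Exclusion-only reads came to 7.85 RPM in STZ A, 5.92 in STZ B and 7.09 in STZ C, against 3.50 in Control A and 3.91 in Control B. Every STZ library lay above both Control libraries, but the share of all events that separate this way was worked out for Psi only. In limma, fitted over all tested events, the log2 difference was 0.90 with a 95% confidence interval of 0.41 to 1.38, a fold of 1.86 (adjusted p = 0.0259), and 10.4% of events were called higher by this measure, with 17.0% called in either direction. Scaling by the median of ratios raised the log2 difference to 1.15 (adjusted p = 0.00611). The limma call was lost without STZ C (adjusted p = 0.0637), without Control A (adjusted p = 0.105) and without Control B (adjusted p = 0.1002), where the log2 difference stayed at 0.88, 0.82 and 0.98 in that order.

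Inclusion-only reads came to 28.2 RPM in STZ A, 9.36 in STZ B and 10.5 in STZ C, against 18.1 in Control A and 29.7 in Control B. The groups overlapped, with STZ A inside the Control range and the other STZ libraries below it. The log2 difference was -0.72 with a 95% confidence interval of -1.83 to 0.39 (limma adjusted p = 0.256), and 41.6% of events were called by this measure, 26.1% of events lower. Without STZ A it was -1.22 (adjusted p = 0.00235). The number of inclusion-only reads for each exclusion-only read was 3.60 in STZ A, 1.58 in STZ B and 1.48 in STZ C, against 5.18 in Control A and 7.59 in Control B.

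**Figure D2:**
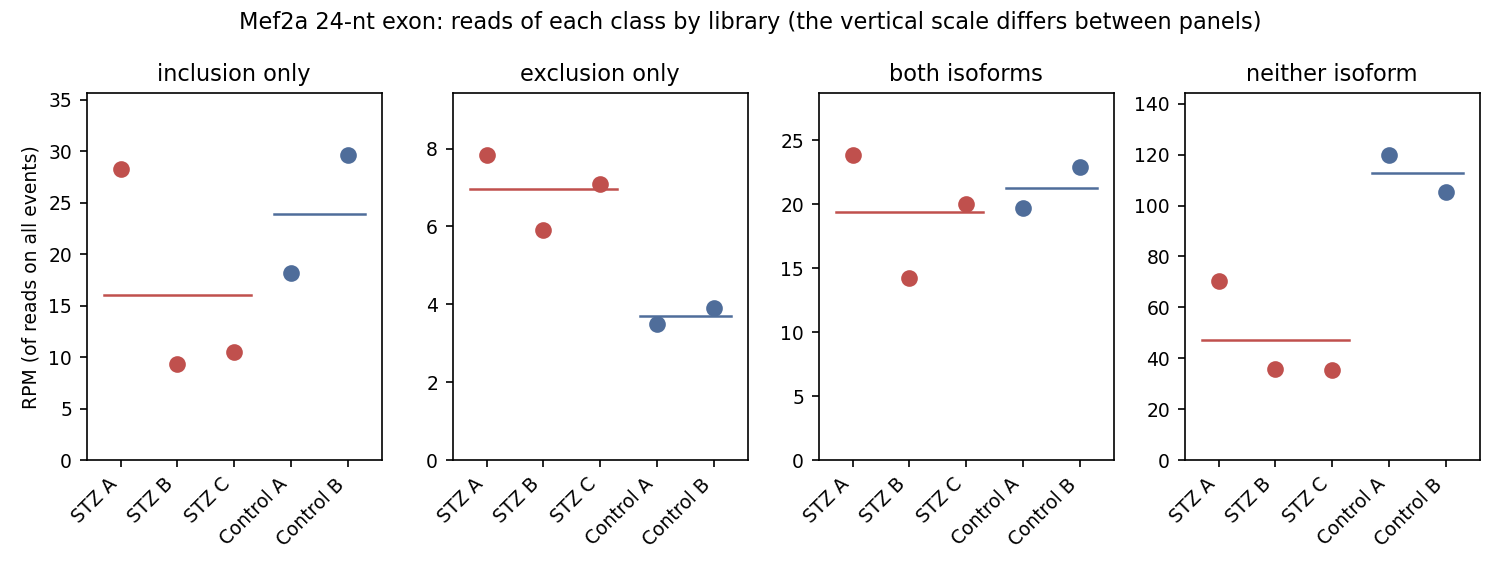
Reads on the Mef2a event in RPM, per 1000000 reads on all events (vertical axes, with a scale of their own in each panel) by class and library (horizontal axes); points are libraries and lines are group means. Exclusion-only reads ran from 5.92 to 7.85 in STZ and from 3.50 to 3.91 in Control, and reads fitting neither isoform ran from 35.2 to 70.2 in STZ and from 105 to 120.0 in Control.

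Most reads on the Mef2a event fitted neither isoform in Control, and fewer did in STZ. Reads that fit neither isoform overlap the event but match neither of its annotated structures. They made up 53.9% of all event reads in STZ A, 54.7% in STZ B and 48.4% in STZ C, against 74.4% in Control A and 65.1% in Control B. The groups did not overlap, but how many events separate this way was not worked out for this measure. On the logit scale the share fell by 0.751 (limma, 95% confidence interval -1.11 to -0.392, adjusted p = 0.0136), where 24.4% of all events were called by this measure, 14.6% of events lower, and the median event had 59.1% of such reads in STZ and 58.9% in Control. The call was lost without Control A, where the difference was -0.531 (adjusted p = 0.0873).

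The read total on Mef2a was lower in STZ, and without the neither class the groups overlapped. All event reads came to 130.2 RPM in STZ A, 65.2 in STZ B and 72.8 in STZ C, against 161 in Control A and 162 in Control B. Every STZ library lay below the Control libraries, but how many events separate this way was not worked out for event reads. The log2 difference was -0.92 with a 95% confidence interval of -1.59 to -0.26, a fold of 0.527 (limma adjusted p = 0.0278). By this measure 53.7% of events were called, 35.3% of events lower in STZ, and the median log2 difference over all events was -0.26. Scaling by the median of ratios, which moved that median to -0.004, gave -0.67 for Mef2a and lost the call (adjusted p = 0.0542). It was also lost without STZ B (limma adjusted p = 0.0894), STZ C (0.0772), Control A (0.114) or Control B (0.115). Reads that fitted an isoform, with the neither class set aside, were 59.9 RPM in STZ A, 29.5 in STZ B and 37.6 in STZ C, against 41.3 in Control A and 56.5 in Control B. These overlapped between the groups, with a log2 difference of -0.25 and a 95% confidence interval of -0.94 to 0.43 (limma adjusted p = 0.515), where 43.8% of events were called and 28.6% of events lower. By the median of ratios the difference was -0.002. Without STZ A it was -0.54 (adjusted p = 0.0335).

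In the authors' deposited table, the difference in Psi of the Mef2a exon, given there as Control minus STZ, was positive in all 6 comparisons and ran from 0.04 to 0.36. The 6 comparisons share libraries and are not independent. A positive sign in all 6 restates that every STZ library was lower than either Control library. In the authors' deposited table the Bayes factor, which weighs a change in Psi against no change, was at least 10 in 5 of 6 comparisons and fell to 0.18 for STZ A against Control A. The difference reached 0.20 in 4 of 6 comparisons of the authors' deposited table. An event counts here as changed by the authors' values where both limits are met in all 6 comparisons, which the Mef2a exon did not do and 3.22% of 6331 events did.

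The 24-nt length places the Mef2a exon among short exons of at most 36 nt, of which 38 of 302 tested were called, 12 higher and 26 lower in STZ. This is 12.6%, close to the 15.0% called among all tested events (4.84% higher and 10.1% lower). Their median Psi difference was 0, against -0.01 over all tested events. The genes with the most similar Psi across the 5 libraries, by root mean square difference with 1 event taken per gene, were C230096C10Rik (a 9-nt exon, 0.0438), Rpl10 (358 nt, 0.0467), Ep400 (108 nt, 0.0548), AK083777 (50 nt, 0.0585) and Nfya (87 nt, 0.0585). The Ep400 exon had Psi of 0.59, 0.50 and 0.49 in STZ A, STZ B and STZ C, against 0.78 and 0.86 in Control A and Control B (limma adjusted p = 0.0421). The Rpl10 exon was at 0.62, 0.47 and 0.51 in the same STZ libraries, against 0.78 and 0.81 in Control A and Control B (limma adjusted p = 0.0477). Both had a level in STZ close to that of the Mef2a exon and passed the test, while C230096C10Rik, AK083777 and Nfya did not pass. All were picked for a Psi like that of the Mef2a exon in these same 5 libraries. Their lower level in STZ follows from that choice and is no separate result.

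The Mef2d exon was included in nearly all transcripts of both groups, and the reads on the event rose in STZ. It is a 307-nt exon at mm9 chr3:87971960-87972266 on the plus strand, between short introns of 303 and 287 nt. All of its bases are coding, and 307 is not a multiple of 3, so the exon does not keep the reading frame. In GENCODE vM21 it is the next to last exon of Mef2d, held by 3 of 7 transcripts, and only 9 coding bases follow it. Psi was 0.99 in all 3 STZ libraries, against 0.99 in Control A and 0.98 in Control B, so the groups overlapped at 2 decimals (limma adjusted p = 0.412). The share of inclusion-only reads was 99.64%, 99.58% and 99.66% in STZ A, STZ B and STZ C. It was 99.48% in Control A and 99.26% in Control B, and the difference in this share did not pass either (limma adjusted p = 0.161). Exclusion-only reads numbered 13, 18 and 11 in STZ A, STZ B and STZ C, against 12 in Control A and 23 in Control B. They stood beside 3563, 4314 and 3252 inclusion-only reads in the same STZ libraries and 2305 and 3095 in the Control libraries. A call appeared when Control A was left out (adjusted p = 0.00394), where Psi was 0.99 in STZ against 0.98 in the remaining Control library, a step of the 2-decimal rounding.

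Reads on the Mef2d event came to 1919.7 RPM in STZ A, 2404 in STZ B and 2162 in STZ C, against 1125 in Control A and 1123 in Control B. All STZ libraries lay well above both Control libraries, which hardly differed from each other. How many events separate this way was not worked out for event reads. The log2 difference was 0.94 with a 95% confidence interval of 0.61 to 1.26, a fold of 1.91 (limma adjusted p = 0.00133), where 18.4% of events were called higher. The rise was larger than that of all but 9.32% of events, and it was 1.19 when scaled by the median of ratios (adjusted p = 0.00145). Reads that fitted an isoform gave a log2 difference of 1.00, from 0.66 to 1.34 (limma adjusted p = 0.00165, where 15.2% of events were called higher). The event takes in the last exon, of 3459 nt in the file, and reads that fitted both isoforms made up 81.0% to 81.6% of the event reads in STZ and 77.2% in both Control libraries. The share of reads that fitted neither isoform was 6.52%, 6.22% and 6.55% in STZ A, STZ B and STZ C, against 10.8% in Control A and 9.55% in Control B. It fell by 0.498 on the logit scale (limma adjusted p = 0.00370), where 14.6% of events were called lower. The reads themselves did not fall, with a mean of 138.8 RPM fitting neither isoform in STZ and 114.4 in Control. Reads that fitted an isoform had means of 2023 RPM in STZ and 1010 in Control.

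**Figure D3:**
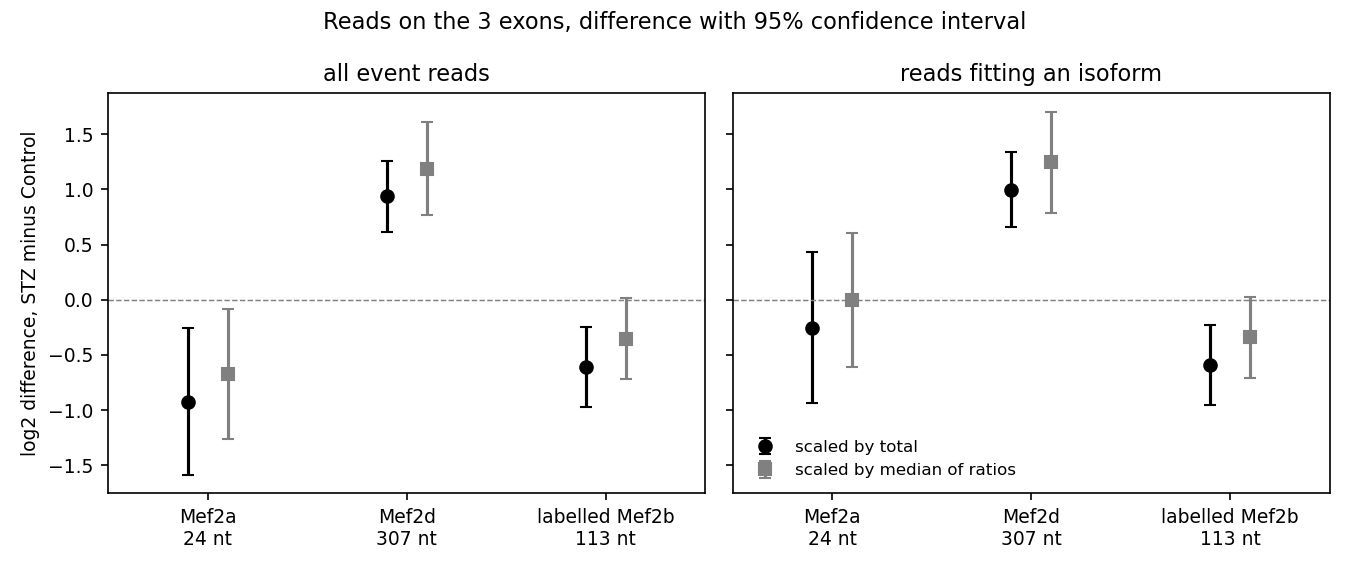
Log2 difference of RPM, STZ minus Control (vertical axes), with 95% confidence intervals for the 3 exons (horizontal axes), for all event reads and for reads that fit an isoform; black circles are scaled by library total and grey squares by the median of ratios. Mef2d is at 0.94 for all event reads and at 1.00 for reads that fit an isoform, while Mef2a is at -0.92 for all event reads and at -0.25 for reads that fit an isoform, by library total.

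The event labelled Mef2b goes against its label. The file pairs the symbol Mef2b with an Ensembl gene whose GENCODE vM21 name is Borcs8, and the lengths of the 113-nt exon and its introns match Borcs8 and no Mef2b transcript. Borcs8, once called Mef2bnb for Mef2b neighbour, encodes a subunit of the BORC complex that positions lysosomes, and transcripts that read through from it into Mef2b are known. The event is therefore called the 113-nt exon labelled Mef2b, at mm9 chr8:72665763-72665875 on the plus strand, and it says nothing about Mef2b itself. Its sequence (GRCm38 chr8:70141864-70141976), in lower case throughout because no stretch of it is singled out, is shown so that the identity can be checked.
113-nt exon: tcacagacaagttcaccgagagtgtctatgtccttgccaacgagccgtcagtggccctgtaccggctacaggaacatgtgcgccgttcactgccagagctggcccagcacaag
The exon is held by 4 of 5 annotated Borcs8 transcripts, and 0 transcripts join its neighbours directly. Psi was 0.98 in STZ A, 0.97 in STZ B and 0.94 in STZ C, against 0.96 in Control A and 0.99 in Control B. The groups overlapped (limma adjusted p = 0.654). Exclusion-only reads numbered 1, 1 and 2 in the same STZ libraries, against 5 in Control A and 0 in Control B, where a count of 0 among 356 informative reads allows a share of up to 0.843%.

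Event reads of this exon were 21.3 RPM in STZ A, 22.9 in STZ B and 24.3 in STZ C, against 34.9 in Control A and 34.6 in Control B. By event reads, 53.7% of all events were called, 35.3% of events lower in STZ. The fold for this exon was 0.657 (limma adjusted p = 0.0135). Its log2 difference was -0.61 with a 95% confidence interval of -0.97 to -0.24. Scaled by the median of ratios it was -0.35 and the call was lost (adjusted p = 0.0918), as it was without Control A (adjusted p = 0.122) and without Control B (adjusted p = 0.116). The share of reads that fitted neither isoform was 27.7%, 35.4% and 40.6% in the STZ libraries in the same order, against 35.95% in Control A and 34.7% in Control B (limma adjusted p = 0.896).

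Among 62 genes listed as acting on MEF2, through deacetylation, phosphorylation, acetylation, methylation, sumoylation or partnership, 18 had a tested event. Of their 25 events, 5 were called, 2 higher and 3 lower in STZ, beside 15.0% of all tested events. Their median Psi difference was -0.0217, against -0.01 over all tested events. The largest change was in a 111-nt exon of Hdac7, a class IIa histone deacetylase that binds MEF2 and represses it. Its Psi was 0.01, 0.01 and 0.02 in STZ A, STZ B and STZ C, against 0.37 and 0.32 in Control A and Control B (limma adjusted p = 0.0107). The STZ libraries together held 8 reads for its inclusion alone and 177 for its exclusion alone, against 171 and 77 in the Control libraries. The other 5 tested Hdac7 events did not pass.

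A 112-nt exon of Hdac5, another class IIa deacetylase, was at 0.25, 0.27 and 0.29 in the STZ libraries, against 0.17 and 0.15 in the Control libraries (limma adjusted p = 0.0282). The 48-nt exon of Mapk12, a p38 kinase, was at 0.73, 0.77 and 0.75 in STZ, against 0.91 and 0.94 in Control (limma adjusted p = 0.0240). It had 90 inclusion-only and 6 exclusion-only reads in STZ, against 100 and 0 in Control. Its share of inclusion-only reads was 92.9%, 96.3% and 92.6% in STZ A, STZ B and STZ C, against 100% in both Control libraries. That change was smaller than the change in Psi. A 207-nt exon of Ncoa2, a nuclear receptor coactivator that also works with MEF2C, was at 0.19, 0.17 and 0.23 in STZ, against 0.38 and 0.42 in Control (limma adjusted p = 0.0306). A 200-nt exon of Carm1, an arginine methyltransferase and MEF2 coactivator, was at 0.05, 0.08 and 0.15 in STZ, against 0.01 in both Control libraries (limma adjusted p = 0.0498). Its reads gave a higher inclusion, with 161 reads for inclusion and 65 for exclusion in STZ, against 11 and 76 in Control. A 138-nt exon of Ep300, the acetyltransferase p300 that MEF2 recruits, averaged 0.89 ± 0.0436 in STZ and 0.945 ± 0.00707 in Control and did not pass (limma adjusted p = 0.215). The quasi-binomial model of the reads called 0 of the 25 events, and 0.503% of all tested events. Of the events of these genes, limma called 2 without STZ A, 1 without STZ B, 3 without STZ C and 1 without Control B.

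**Figure D4:**
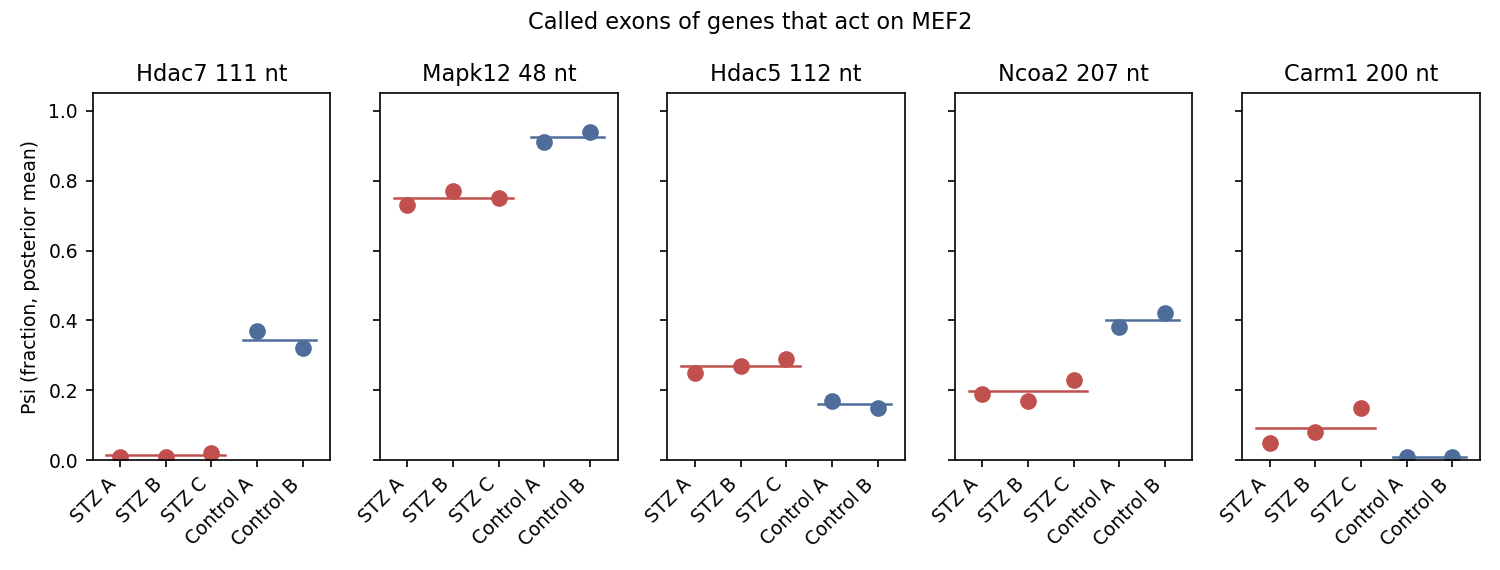
Psi (vertical axis, a fraction from 0 to 1) of the 5 called exons of genes that act on MEF2, in each STZ and Control library (horizontal axes); points are libraries and lines are group means. The Hdac7 exon was at 0.02 or less in STZ and at 0.32 or more in Control, and the Hdac5 and Carm1 exons were higher in STZ.

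A list of 23 symbols, called splicing factors here, held factors known to act on muscle or short exons and kinases of the Srpk family. It holds quaking both as Qk and as Quaking, so it covers fewer genes than symbols. Of these genes, 8 had a tested event, and 5 of their 14 events were called, 3 higher and 2 lower in STZ. This stands beside 15.0% of all tested events (4.84% higher and 10.1% lower). The quasi-binomial model of the reads called 1 of the 14. Their median Psi difference was -0.01. The called exons were in Mbnl2 (95 and 54 nt) and Mbnl1 (54 nt), all higher, and in Celf1 (152 nt) and Ptbp1 (78 nt), both lower. MBNL and CELF proteins have opposing effects on many heart exons, and PTBP1 represses many muscle exons. The 78-nt Ptbp1 exon was at 0.24, 0.18 and 0.18 in STZ A, STZ B and STZ C, against 0.52 and 0.58 in Control A and Control B (limma adjusted p = 0.0180). Limma called 3 of the events of these genes without STZ B, 2 without STZ C, 1 without Control A and 1 without Control B. Of 46 genes listed as MEF2 targets, 10 had a tested event, and 2 of their 20 events were called, both lower in STZ, a share no higher than the 15.0% of all tested events and close to the 10.1% called lower. The median Psi difference of the 20 events was -0.0025. A called event was a 138-nt exon in the giant sarcomere gene Ttn, at 0.61, 0.68 and 0.61 in STZ A, STZ B and STZ C, against 0.89 and 0.83 in Control A and Control B (limma adjusted p = 0.0381). A difference in exon use says nothing about the amount of transcript from these targets. Limma called 0 events of these genes without STZ C, without Control A or without Control B.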

How the data were processed

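RNA from left ventricle was sequenced in 3 STZ and 2 Control samples. CASAVA 1.8.2 and TopHat are named, with the genome build mm9, per the submitters' processing notes. The authors compared libraries pairwise with MISO, per the file headers; its version is not given in the sources used here. Psi was deposited by the authors as a fraction, a posterior mean rounded to 2 decimals. The Bayes factor was deposited by the authors as a ratio, and the difference and the read counts in 4 classes (inclusion only, exclusion only, both, neither) have units recorded as other, per the file headers. A library had identical values in every table that held it. The 36 other columns of values per library were not used.

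Groups were assigned to the coded libraries from their numbers, 3 against 2, so labels' replicate numbers cannot be matched to libraries. Nothing says that samples are separate animals. The p-values weigh a group difference against the spread between these samples, moderated over all events, and that spread may be technical. Of 6616 events, 3665 were named by the file, 2584 by length match to GENCODE vM21 and 367 stayed without a name. Coordinates are 1-based.

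Events with at least 10 informative reads (inclusion only plus exclusion only) in every library were tested. Psi was clipped to 0.01 to 0.99, put on the logit scale and fitted in limma 3.58.1, two-sided, with a variance trend on informative reads and Benjamini-Hochberg adjustment. Event reads and read classes (RPM, scaled to reads on all events, log2 with a pseudocount of 0.5) and the share fitting neither isoform were fitted likewise; these 5 measures were added after the values had been seen, and the adjustment runs within each measure. The inclusion-only and exclusion-only fits took the tested events, and the others took events with at least 10 event reads in every library. Reads count once per event, so overlapping events share reads. Models were tested on simulated data. The limma and quasi-binomial fits of exon use missed many of the known differences there. A result that misses the threshold therefore does not show that exon use was equal. Limma also called 36 of 4569 events simulated without a difference, beside 5 of 94 with a smaller and 49 of 106 with a larger one. False calls were thus a larger part of its calls there than the threshold allows. The quasi-binomial model called 1 of the 4569. The limma calls of exon use reported here may therefore hold more false calls than the adjusted p implies. Alternatives were other clips and read minimums, the inclusion-only share, array weights, a quasi-binomial model, other limits on the authors' values, another scaling and leaving out each library.

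All Mef2 events are described. In each list, called events and the deepest event of a gene could be named, at most 8 by adjusted p, and likeness names 5 genes. The Mef2 exons and gene lists were chosen with earlier results of these data known. The values of 1 gene of the target list are not reported here.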

Additional observations from a re-analysis of the deposited data

How the results depend on the processing

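The Mef2a exon had a lower Psi in STZ and missed the threshold under all 10 settings that kept every library, with adjusted p from 0.0762 to 0.266, and without each library in turn (logit difference -1.38 to -0.80, adjusted p from 0.0875 to 0.515). No paired analysis was possible because the columns carry no replicate numbers. Leaving out a library left 282 to 467 of all events called, 0 to 1 Mef2 events, 1 to 4 events of the genes acting on MEF2, 1 to 5 of the splicing factors and 0 to 3 of the targets. The quasi-binomial model of the reads called 24 events in all, 0 of genes acting on MEF2, 1 of splicing factors and 0 of targets. The inclusion-only share called 3 events of genes acting on MEF2 and 6 of targets; targets had 5 with Psi clipped at 0.001 and 4 with array weights. With the authors' values, 356 events met a difference of at least 0.10 and 396 one of 0.05. The 113-nt exon labelled Mef2b had a logit difference in Psi of -1.22 to 0.195 over left-out libraries, reversed without Control B, and of -0.174 to 0.115 in the share of reads fitting neither isoform, reversed without STZ A. The cause was not tested.

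Scaling by the median of ratios gave log2 differences in event reads of -0.67 for Mef2a and -0.35 for the exon labelled Mef2b, neither past the threshold. Over left-out libraries, Mef2a had -1.23 to -0.73 in event reads (the call was lost without STZ B, STZ C, Control A or Control B), -0.54 to -0.0252 in reads fitting an isoform, -1.22 to -0.37 in inclusion-only reads, 0.81 to 1.01 in exclusion-only reads and -0.972 to -0.531 in the share fitting neither isoform. The exon labelled Mef2b had -0.65 to -0.56 in event reads. Mef2d stayed called in event reads (0.86 to 1.02), reads fitting an isoform (0.91 to 1.08) and the share fitting neither isoform (-0.567 to -0.429). Calls over all events were 1944 to 4204 for event reads, 1253 to 3536 for reads fitting an isoform, 808 to 2469 for inclusion-only reads, 263 to 1079 for exclusion-only reads and 584 to 1694 for the share fitting neither isoform. With 2 Control libraries, the spread within Control rests on 1 difference, and libraries with 0 to 23 exclusion-only reads limit what the Mef2d and 113-nt exons can show.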
